A study of Homo sapiens with 6 samples.

Results

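The transcripts described here code for 10 proteins that act on blood and lymphatic vessels: THBS1, THBS2, FGF2, VEGFB, VEGFC, ANGPTL4, PDGFA, PDGFB, PGF and NRP1. They are 10 of 18849 genes named by the array's probes, and every probe whose platform gene symbol is one of these names was used, 20 of 48803 in all. Of these, 12 probes of 8 genes were bright enough to be tested, and the probes of THBS2 and PGF were not. NRP1 stands apart from the other 9, since its main product is a membrane receptor and not a secreted factor.

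Expression was measured on 6 Illumina bead arrays, with total RNA of SKOV3ip1 cells, a human ovarian carcinoma line derived from SKOV3. Cells of 3 samples had received siRNA against the transcription factor STAT3 (siSTAT3), and cells of 3 samples a control siRNA (siCon). The comparison asks which transcripts differ when STAT3 is knocked down. The time after transfection, the siRNA sequences and the number of separate cultures are not given in the sources used here, so a p-value here speaks of the scatter of these 6 samples, part of which may be technical.

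Growth of vessels is set by secreted activators and inhibitors that act mostly on endothelial cells. The VEGF family signals through the receptors FLT1, KDR and FLT4 with neuropilins as co-receptors, PDGF dimers recruit pericytes and stromal cells, and FGF2 acts through FGF receptors with heparan sulfate. Thrombospondins are inhibitors on the other side of the balance and bind CD36 and CD47 on endothelial cells. Ovarian carcinomas depend on such factors for tumour vessels and for ascites, and STAT3 is widely described as an activator of angiogenic genes in tumours.

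Values are quantile-normalised probe intensities in linear units, given as mean ± SD with n = 3 per group, and changes are log2 siSTAT3 over siCon ± SE. Adjusted p-values are those of limma over all 14145 genes tested, with a threshold of 0.05, unless the fit over probes is named. Median unnormalised intensity lay between 93.5 and 97.1 on siSTAT3 arrays and between 93.0 and 95.9 on siCon arrays. The STAT3 transcript was at 23.9%, 29.9% and 32.3% of its siCon intensity on its 3 probes, with no overlap between groups on any of them. Of the 12 ovarian carcinoma and epithelial markers listed, 9 lay above an intensity of 200, among them PAX8, ERBB2, EPCAM and KRT19, while WT1, CDH1 and MUC16 lay near the median of all probes (94.8). Among these markers of the cells themselves 1 was called, the keratin KRT8, at 970 ± 86.1 in siSTAT3 and 1395 ± 183 in siCon (-0.52, adjusted p = 0.0458, and -0.64 with 0.00175 without siCon replicate 3). It missed the threshold without any 1 of the other 5 arrays (adjusted p between 0.115 and 0.247). The mesothelial antigen MSLN, named after its value was seen, read 1047 ± 44.2 in siSTAT3 and 1392 ± 54.2 in siCon without overlap (-0.41, adjusted p = 0.0606). Of the 12 markers 6 had a change below 0 and 6 above it, with a median of 0.04. Among those above were MUC1 (0.28), EPCAM (0.21) and PAX8 (0.12, without overlap), none of which passed. KRT8 and MSLN thus lay lower on the same arrays as THBS1 and FGF2 below, while the 12 markers as a set did not. The part of KRT8 and MSLN in those results was not tested. None of the 8 tested endothelial markers lay above 200, and their summed intensity was 745 to 795 on siSTAT3 arrays and 779 to 833 on siCon arrays. Of 6 tested fibroblast, pericyte and smooth muscle markers 1 lay above 200, ACTA2 (374 in siSTAT3 and 342 in siCon). Of 3 tested leukocyte markers 1 did, CD68 (1410 in siSTAT3 and 1557 in siCon). Neither of 2 tested platelet markers did, and GP1BA lay lower in siSTAT3 without overlap (-0.31, adjusted p = 0.231). None of these non-epithelial markers was called. One array stood apart, siCon replicate 3, with a first principal component score of 23.8, against -9.77 to -7.34 on siSTAT3 arrays and -0.42 and 1.18 on the other siCon arrays. Many of the counts and values that it moved, though not all, are given below without it as well.

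THBS1, the anti-angiogenic matricellular protein thrombospondin-1, which also activates latent TGF-beta, fell to 59.7% of its siCon intensity. Its probe read 2679, 2442 and 2957 on the siSTAT3 arrays, against 4982, 3333 and 5227 on the siCon arrays. Each siSTAT3 array was below each siCon array, and siCon replicate 2 was the nearest to them. The group means were 2693 ± 258 in siSTAT3 and 4514 ± 1030.4 in siCon, a 1.65-fold fall (log2 change -0.72 ± 0.15, adjusted p = 0.0249). THBS1 has 1 probe on the array, so no other probe bears on this value. In bulk RNA, less transcript per cell cannot be told apart from fewer cells that make it.

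The siSTAT3 arrays were close to one another for THBS1, and most of the spread lay among siCon arrays. Leaving out siCon replicate 2 gave -0.93 (adjusted p = 0.00112) and leaving out siCon replicate 3 gave -0.60 (adjusted p = 0.0194). The fall was not past the threshold without siCon replicate 1 (-0.64, adjusted p = 0.098) or without siSTAT3 replicate 1, 2 or 3 (-0.72, -0.65 and -0.79, with adjusted p-values of 0.145, 0.162 and 0.0951).

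The promoter of THBS1 is shown because THBS1 had the largest fall among the 8 tested factors. A second reason is that, of the 12 windows found among the 10 factors, only that of THBS1 held the classic STAT motif. The sequence is from RefSeq (GRCh38.p14) and covers the 250 bases before the transcript start on the plus strand, chr15:39580829-39581078, 5′ to 3′. Capitals mark the match to TTCNNNGAA, a pattern that, with any base at each N, reads the same on both strands. The matched stretch begins 207 bases before the start.
THBS1: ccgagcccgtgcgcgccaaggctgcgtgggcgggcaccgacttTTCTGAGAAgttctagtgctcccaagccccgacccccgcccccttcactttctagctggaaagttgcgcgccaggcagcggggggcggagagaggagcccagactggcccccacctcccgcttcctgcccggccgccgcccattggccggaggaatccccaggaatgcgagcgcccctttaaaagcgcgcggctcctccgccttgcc

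Of the 10 factors, 8 matched a promoter window by symbol, with 12 windows in all, each of 300 bases (250 before and 50 after the start). NRP1 and PDGFB had no window and were not searched, while the untested THBS2 and PGF were. The motif was found in 1 of these 12, that of THBS1, and in 7.66% of all 35116 windows of that length. The match describes letters in a window. It does not show binding. The lack of a match in the window of FGF2 or of any other searched factor says only that the letters are not there.

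**Figure D1:**
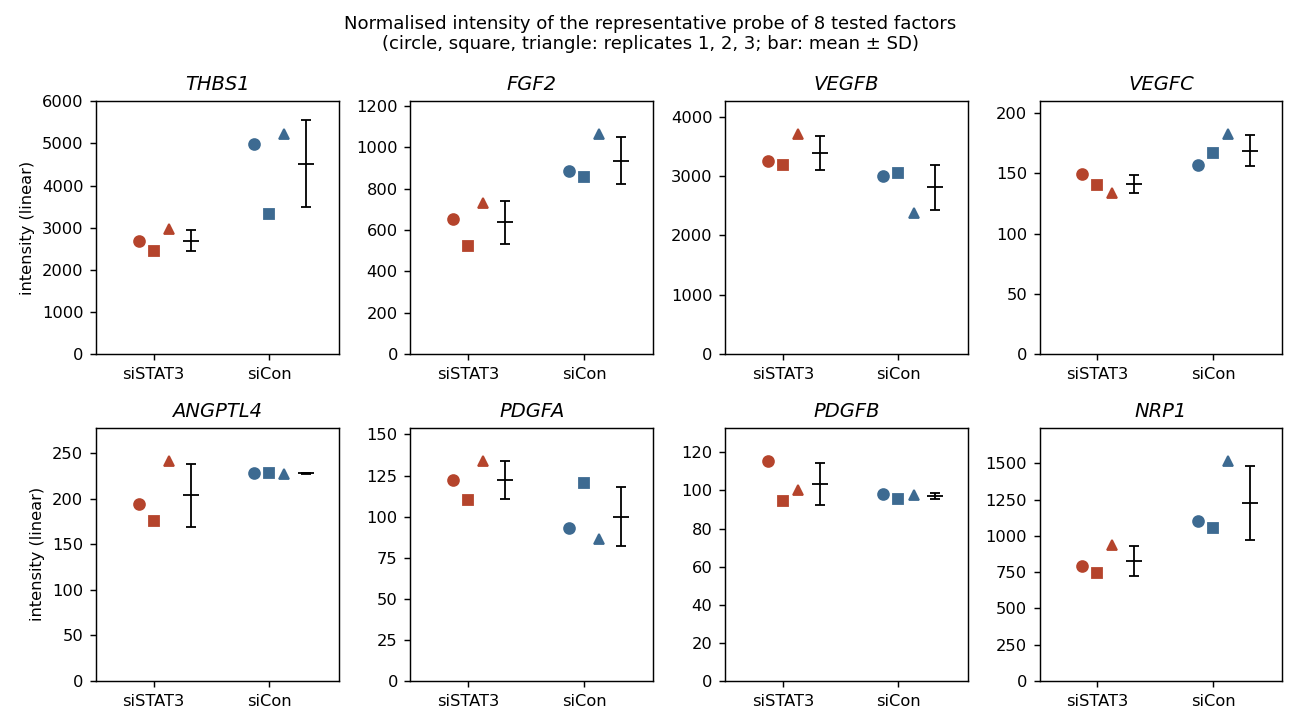
Normalised intensity (linear axis from 0) of the representative probe of each of 8 factors, with siSTAT3 arrays in red and siCon arrays in blue and the mean ± SD beside each group. The 3 siSTAT3 arrays lie below the 3 siCon arrays for THBS1, FGF2, VEGFC and NRP1 and above them for VEGFB, while ANGPTL4, PDGFA and PDGFB overlap.

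FGF2, the heparin-binding basic fibroblast growth factor, fell on its brighter probe and lay lower, short of the threshold, on its other probe. Probe ILMN_2105919 read 655, 524 and 732 on siSTAT3 arrays, against 886, 854 and 1066 on siCon arrays. The groups did not overlap, and their means were 637 ± 105.1 in siSTAT3 and 935 ± 114 in siCon (log2 change -0.56 ± 0.13, 1.48-fold, adjusted p = 0.0493). The fit over all probes gave the same probe an adjusted p of 0.0562, on the other side of the threshold. Probe ILMN_1744693 read 284, 242 and 236 on siSTAT3 arrays, against 329.5, 277 and 384 on siCon arrays. There siSTAT3 replicate 1 was above siCon replicate 2, so the groups overlapped, and the change was -0.37 ± 0.12 (adjusted p = 0.254 over probes). This probe gave -0.25 without siCon replicate 3 (adjusted p = 0.391 over probes).

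The call for FGF2 lay close to the threshold. The fold was as large with the authors' processed values (-0.57), but the adjusted p was 0.0533. It lost its call without any 1 of the siSTAT3 arrays or without siCon replicate 1 (adjusted p between 0.0835 and 0.261) and kept it without siCon replicate 3 (-0.46, adjusted p = 0.0494). The gene NUDT6, whose span overlaps that of FGF2 and which was first described as its antisense transcript, was named after its value was seen and gave 0.14 (adjusted p = 0.763).

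NRP1, the neuropilin-1 co-receptor for VEGF and class 3 semaphorins, lay lower on siSTAT3 arrays but missed the threshold. Probe ILMN_1699574 read 791, 747 and 940.0 on siSTAT3 arrays, against 1102, 1055 and 1518 on siCon arrays. The groups did not overlap, with siCon replicate 3 well above the other siCon arrays. The means were 826 ± 101.2 in siSTAT3 and 1225 ± 255 in siCon (log2 change -0.56 ± 0.14, adjusted p = 0.0648, 95% interval -0.85 to -0.26 before adjustment). A second probe, ILMN_1742547, is annotated to another RefSeq transcript of the gene and gave a smaller difference. It read 130.4, 120.7 and 134 on siSTAT3 arrays, against 139.6, 139 and 141 on siCon arrays, without overlap (-0.13 ± 0.10, adjusted p = 0.757 over probes). The difference between the probes was not tested. With the mean of both probes NRP1 gave -0.34 (adjusted p = 0.175). Without siCon replicate 3 the first probe gave -0.39 (adjusted p = 0.0748), and without siCon replicate 2 it gave -0.65 and passed (adjusted p = 0.0392).

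VEGFB, a VEGF family ligand of FLT1 and NRP1, lay higher on siSTAT3 arrays on both of its tested probes, and neither passed. Probe ILMN_1726981 read 3255, 3187 and 3711 on siSTAT3 arrays, against 3002, 3047 and 2375 on siCon arrays. The groups did not overlap, but siCon replicate 3 was far below the other siCon arrays. The change was 0.28 ± 0.12 (adjusted p = 0.371, 95% interval 0.02 to 0.53) and 0.16 (adjusted p = 0.549) without that array. Probe ILMN_1722855 read 253, 281 and 264 on siSTAT3 arrays, against 243, 211 and 195 on siCon arrays, again without overlap (0.30 ± 0.11, adjusted p = 0.283 over probes). This probe gave 0.23 without siCon replicate 3 (adjusted p = 0.405 over probes). The third probe lay under the brightness filter, at 88.0 ± 11.8 in siSTAT3 and 86.04 ± 5.47 in siCon.

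VEGFC, the ligand of FLT4 that drives growth of lymphatic vessels, lay slightly lower on siSTAT3 arrays. Its single probe read 149, 141 and 134 on siSTAT3 arrays, against 157, 167 and 183 on siCon arrays. The groups did not overlap, and the change was -0.26 ± 0.11 (adjusted p = 0.335, 95% interval -0.48 to -0.03). Without siCon replicate 3 it was -0.20 (adjusted p = 0.411).

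ANGPTL4, a secreted inhibitor of lipoprotein lipase with reported roles in vessel permeability, overlapped between groups. Its tested probe read 194, 175 and 242 on siSTAT3 arrays, against 228, 228 and 227 on siCon arrays. Here the siCon arrays were nearly equal, and the spread lay among siSTAT3 arrays, of which replicate 3 was above all siCon arrays. The change was -0.18 ± 0.12 (adjusted p = 0.652, 95% interval -0.43 to 0.08). It was -0.07 without siSTAT3 replicate 2 and -0.31 without siSTAT3 replicate 3, so its size rested on single arrays. The other 2 ANGPTL4 probes lay under the filter, with group means of 84.9 to 90.9.

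The PDGF chains, ligands of the PDGF receptors of stromal cells and pericytes, lay near the median of all probes. PDGFA read 122, 110.4 and 134 on siSTAT3 arrays, against 92.8, 120.4 and 86.6 on siCon arrays. The groups overlapped through siCon replicate 2 (0.30 ± 0.13, adjusted p = 0.362, and 0.21 with 0.474 without siCon replicate 3). PDGFB read 116, 94.2 and 100.4 on siSTAT3 arrays, against 98.2, 95.4 and 97.6 on siCon arrays, and the groups overlapped (0.09 ± 0.11, adjusted p = 0.836). The PDGFB difference was 0.0032 without siSTAT3 replicate 1, 0.15 without siSTAT3 replicate 2 and 0.02 with the mean of its 2 tested probes. The 2 other PDGFA probes and 1 of the other PDGFB probes lay under the filter, and the remaining PDGFB probe gave -0.04 ± 0.09.

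THBS2, the second anti-angiogenic thrombospondin, and PGF, the placental ligand of FLT1, lay below the filter on dim probes. The THBS2 probe averaged 81.8 ± 6.88 in siSTAT3 and 84.7 ± 8.56 in siCon. The PGF probe averaged 78.9 ± 8.95 in siSTAT3 and 75.5 ± 8.06 in siCon. That filter was an intensity of 89.9 averaged over all 6 arrays. Neither gene was tested, so no change of either could be read here.

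**Figure D2:**
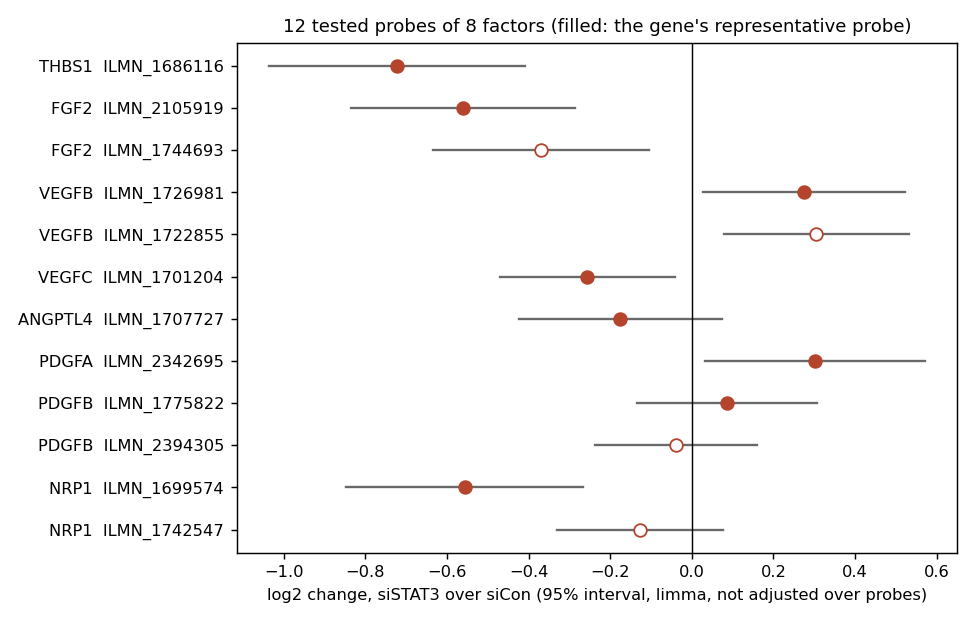
Log2 change, siSTAT3 over siCon, of the 12 tested probes of 8 factors with 95% intervals from limma's fit over probes, filled for the probe that represents its gene. THBS1, FGF2 and NRP1 lie furthest below 0, the VEGFB probes and PDGFA lie above it, and the intervals of the second NRP1 probe, the ANGPTL4 probe and both PDGFB probes include 0.

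Among the 8 tested genes 2 fell, none rose and 6 did not pass. Of the 2, THBS1 codes for an inhibitor of vessel growth and FGF2 for an activator. Over all genes tested 1.46% were called in either direction and 1.07% were called lower. At an unadjusted p under 0.05 there were 6 of the 8, against 12.1% of all genes. Without siCon replicate 3 there were 3 of the 8 (THBS1, FGF2 and NRP1), against 14.7% of all genes. The groups did not overlap for 4 factors that were lower in siSTAT3 and 1 that was higher, against 8.56% and 8.63% of all genes. Without siCon replicate 3 they were again 4 and 1, against 15.5% and 14.9% of all genes. The median change was -0.22 over the 8 factors and 0.01 over all genes, and -0.19 and 0.0036 without siCon replicate 3. In the fit over probes only THBS1 was called among the 12 tested probes of these factors, against 0.673% of all 29282 probes called as lower. For 5 of the 12 all siSTAT3 arrays were lower and for 2 all were higher, against 7.62% and 7.49% of all probes. These factors were chosen with earlier results of the same arrays known, so the counts are a description and no test of the group.

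Around the factors, 4 further groups of genes were measured. Of 34 receptors listed, 29 were tested and none passed by limma, with 1 at an unadjusted p under 0.05 (12.1% over all genes). The smallest p-values were those of FGFR3, a receptor of FGFs (532 ± 28.7 in siSTAT3 and 682 ± 134 in siCon, -0.34, adjusted p = 0.307), of the integrin subunit ITGAV (-0.37, adjusted p = 0.454, and -0.20 without siCon replicate 3) and of the heparan sulfate proteoglycan SDC1 (-0.17, adjusted p = 0.586). Without siCon replicate 3 FGFR3 passed (-0.50, adjusted p = 0.0137), while with the mean of its probes it was -0.06. The endothelial receptors FLT1, KDR, FLT4 and TEK, named after their values were seen, had group means of 88.7 to 98.1, near the median of all probes. The thrombospondin receptor CD47, also named after its value was seen, was measured well above that. It read 1144 ± 61.3 in siSTAT3 and 1198 ± 178 in siCon (-0.06, adjusted p = 0.923).

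Of 31 other angiogenic ligands and their carriers, 18 were tested and none passed over genes. At an unadjusted p under 0.05 there were 3, against 12.1% of all genes. CXCL8, the chemokine interleukin-8, which is also angiogenic, read 15841 ± 1127 in siSTAT3 and 24531 ± 6116 in siCon on its representative probe (-0.61, adjusted p = 0.0523). Its other probe, ILMN_1666733, passed in the fit over probes, with -0.77 and an adjusted p of 0.00228. With the mean of its probes CXCL8 gave -0.69 and passed over genes (adjusted p = 0.0162). Without any 1 of the siSTAT3 arrays its representative probe missed the threshold (adjusted p between 0.183 and 0.302). The representative CXCL8 probe read 31534 on siCon replicate 3, against 20241 and 21816 on the other siCon arrays, and gave -0.42 without it (adjusted p = 0.0443). FGFBP1, a secreted carrier that releases FGF2 from matrix, read 3046 ± 323 in siSTAT3 and 4177 ± 303 in siCon without overlap (-0.46, adjusted p = 0.0600), and passed without siCon replicate 3 (-0.47, adjusted p = 0.0332). ANGPT1, an activator of TEK, gave -0.30 on its representative probe (adjusted p = 0.302). Its other tested probe, ILMN_2086890, gave -0.07 with all 6 arrays (adjusted p = 0.913 over probes). Without siCon replicate 3 that other probe was the brighter and stood for the gene, at -0.06. This value is thus not of the same probe as the -0.30. VEGFA, named after its value was seen, overlapped between groups at 398 ± 73.5 in siSTAT3 and 378 ± 49.1 in siCon.

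Of 29 further anti-angiogenic proteins, 19 were tested and none passed by limma, with 3 at an unadjusted p under 0.05 (12.1% over all genes). ADAMTS1, a protease with thrombospondin repeats, read 438 ± 42.3 in siSTAT3 and 609.5 ± 107.2 in siCon without overlap (-0.47, adjusted p = 0.114). It passed without siCon replicate 2 (-0.61, adjusted p = 0.0211) and was -0.36 without siCon replicate 3 (adjusted p = 0.144). Without any other single array its adjusted p lay between 0.243 and 0.435. The semaphorins SEMA3E (-0.34, adjusted p = 0.195) and SEMA3B (0.23, adjusted p = 0.400) lay on opposite sides of 0. The thrombospondins THBS3 and THBS4, named after their values were seen, gave -0.02 and -0.06.

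Of 34 proteases, partners and regulators of these factors, 25 were tested, 2 fell and none rose, against 1.07% of all genes called lower. At an unadjusted p under 0.05 there were 5 of the 25, against 12.1% of all genes. PLAT, tissue plasminogen activator, read 343 ± 40.6 in siSTAT3 and 529 ± 21.9 in siCon (-0.63, adjusted p = 0.0085). EPAS1, a hypoxia-inducible factor that drives VEGF family and ANGPTL4 genes in other settings, read 737 ± 23.4 in siSTAT3 and 1083 ± 34.6 in siCon (-0.56, adjusted p = 0.00952). PLAT missed the threshold without siSTAT3 replicate 1 or 2 (adjusted p = 0.0895 and 0.0654), and EPAS1 without any 1 of the siSTAT3 arrays (0.0621 to 0.0826). SULF2, a sulfatase that edits heparan sulfate, was named after its values were seen, and the groups did not overlap on any of its 3 tested probes. Its representative probe was not called (608 ± 19.0 in siSTAT3 and 711 ± 43.1 in siCon, -0.22, adjusted p = 0.400). In the fit over probes ILMN_1686981 (-0.54, adjusted p = 0.0206) and ILMN_1667460 (-0.45, adjusted p = 0.0418) passed. The median changes of the 4 groups were -0.05 for receptors, -0.03 for other ligands, -0.08 for further anti-angiogenic proteins and -0.08 for proteases, partners and regulators.

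**Figure D3:**
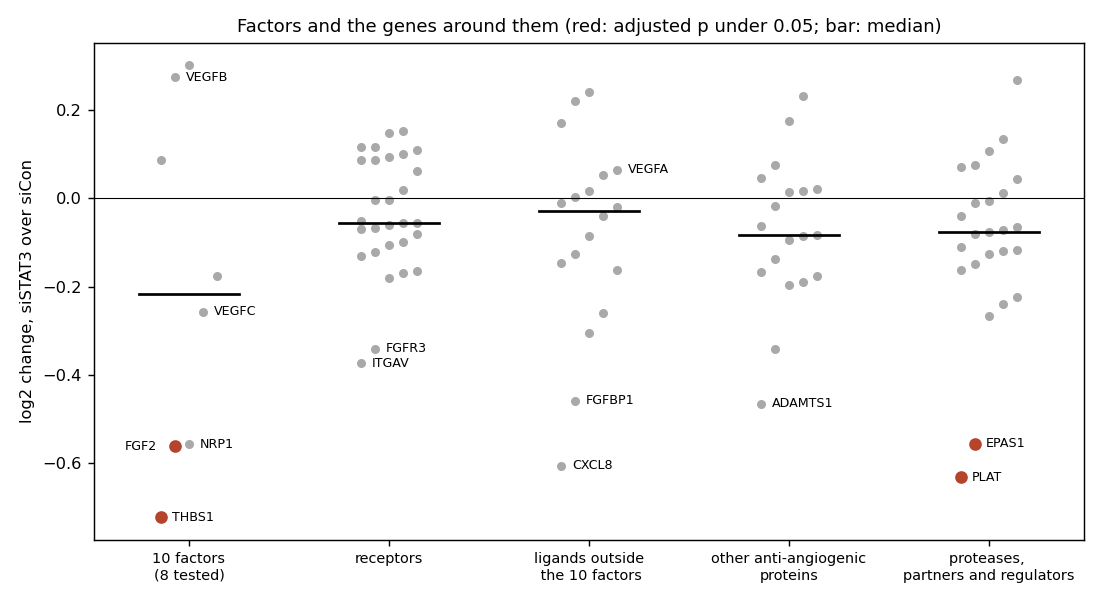
Log2 change, siSTAT3 over siCon, of each tested gene in 5 groups, with genes past an adjusted p of 0.05 in red and the group median as a bar. THBS1 and FGF2 among the 8 tested factors and PLAT and EPAS1 among their regulators passed, and the receptors cluster around a median of -0.05.

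The genes most like THBS1 over the 6 arrays were found by the root mean square difference of log2 values centred on each gene's mean. They were RIN2, a guanine nucleotide exchange factor of RAB5 (difference 0.11, log2 change -0.69), SSR1, a subunit of the translocon-associated complex (0.14, -0.77), and FNDC3A (0.14, -0.70). For FGF2 they were the matricellular protein CCN1 (0.04, -0.53), the receptor chain IL6ST (0.06, -0.57) and the replicative helicase subunit MCM3 (0.07, -0.54). RIN2 read 1074, 965 and 996 on siSTAT3 arrays and 1667, 1351 and 1935 on siCon arrays, with siCon replicate 2 the lowest of its group as for THBS1. CCN1 read 1294, 1109 and 1461 on siSTAT3 arrays and 1713, 1755 and 2099 on siCon arrays, with siCon replicate 3 the highest as for FGF2. The likeness describes these 6 arrays and includes the difference between groups.

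**Figure D4:**
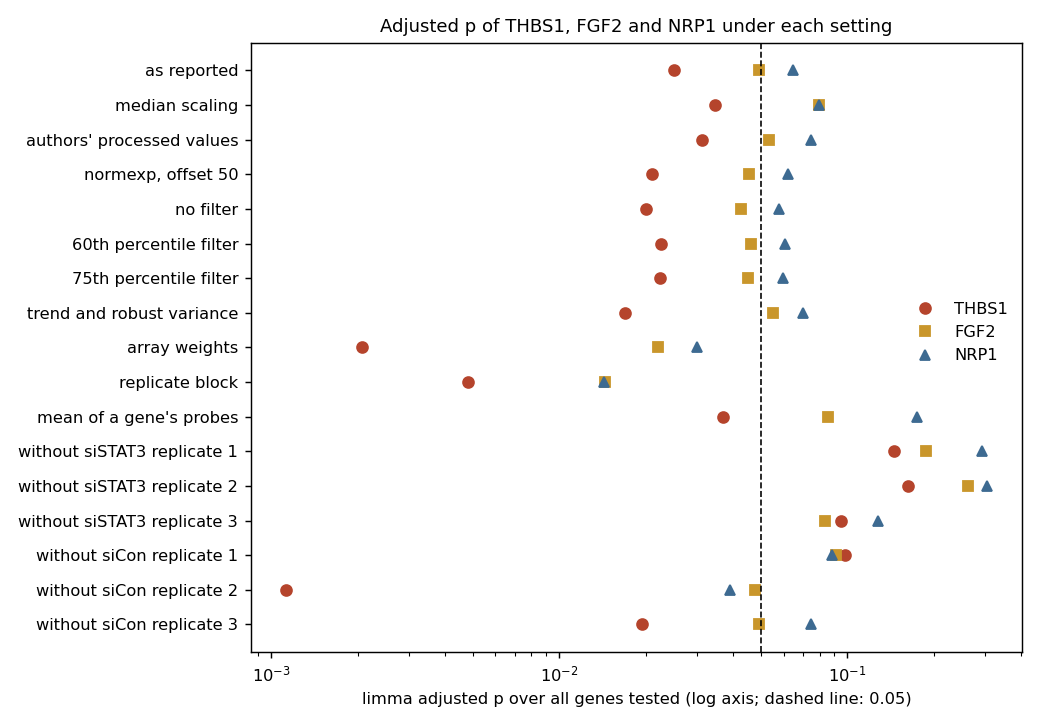
Adjusted p of THBS1, FGF2 and NRP1 (log axis, limma over all genes tested) as reported and under each of 16 other settings, with the threshold of 0.05 as a dashed line. THBS1 passes under 12 of the 16, FGF2 under 8 and NRP1 under 3, and with any siSTAT3 array left out all 3 genes lie to the right of the line.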

How the data were processed

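Biotin-labelled cRNA of 3 siSTAT3 and 3 siCon samples was hybridised to single-colour Illumina arrays, per the labels' protocols. The authors deposited probe intensity, unnormalised in one table and processed in the other. The submitters' processing notes name BeadStudio, without a version, and the sources used here do not say whether background was removed. The unnormalised intensities were quantile-normalised, taken to log2 and compared in limma 3.58.1 (R 4.3.3, lmFit and eBayes, two-sided, Benjamini-Hochberg). No background was subtracted, since neither detection p-values nor negative controls were used. With normexp correction, which estimates background from the intensities, the dim VEGFC and PDGFA gave -0.28 and 0.35, against -0.26 and 0.30 without it. Tested were the probes whose mean exceeded the 40th percentile (89.9), and each gene was represented by its brightest tested probe. Of 48803 probes 28098 had 1 symbol, 13 several and 20692 none. Symbols were updated through RefSeq (GRCh38.p14) by Entrez ID for 28059 probes and by accession for 14, and 25 kept the platform's symbol. A second fit covered all probes that passed.

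Members and lists were chosen with earlier results of these data known. Genes named are every member, STAT3, from each of the 4 further groups the genes past the threshold or otherwise the 3 smallest p, and the 3 genes most like each called member. Further genes of the 4 groups are marked as named after their values were seen. Intensities over 200 were taken as above background for marker counts. The procedure was tested on simulated data. Same-numbered arrays did not meet the rule for pairing (correlations of deviations 0.05, 0.18 and 0.07), so no block was used. Other settings tried were the authors' processed values, median scaling, normexp with an offset of 50, other filters, trend and robust variance, array weights, a replicate block, the mean of a gene's probes and each array left out.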

Additional observations from a re-analysis of the deposited data

How the results depend on the processing

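The 8 tested factors kept the sign of their change under each alternative that gave a value. THBS1 passed under 12 of 16 alternatives, with changes of -0.93 to -0.60. The other 4 each left out 1 array, and gave -0.72, -0.65 and -0.79 without siSTAT3 replicates 1 to 3 and -0.64 without siCon replicate 1. FGF2 passed under 8 of 16. It missed the threshold at -0.53 under median scaling (adjusted p = 0.0799), -0.57 with the authors' processed values (0.0533), -0.56 with trend and robust variance (0.055) and -0.47 with the mean of a gene's probes (0.0857). With 1 array left out FGF2 ranged from -0.67 to -0.43. NRP1 passed under 3 of 16, with array weights (-0.46, adjusted p = 0.0302), with the replicate block and without siCon replicate 2, and with 1 array left out it ranged from -0.66 to -0.39. It was -0.34 with the mean of its probes. No other tested factor passed under any alternative. Of the 8 genes, 1 was called under median scaling, with the processed values, with trend and robust variance and with the mean of a gene's probes. With 1 array left out 0 to 3 were called by limma. The 4 fits with 0 left out siSTAT3 replicate 1, 2 or 3 or siCon replicate 1. In that order they had 4, 5, 4 and 5 of the 8 at an unadjusted p under 0.05. Over all genes the same fits had 1269 of 14143, 1279 of 14134, 1212 of 14113 and 1663 of 14164. The probes tested were 12 as reported, 20 with no filter and 12 to 14 with 1 array left out. Of these, 1 was called as reported, 2 with no filter or with array weights, and 0 to 2 with 1 array left out. The 4 fits with 0, in the order above, had 7 of 13, 6 of 13, 6 of 12 and 7 of 12 at an unadjusted p under 0.05. No share over all probes was taken under these other settings, so these probe counts do not set the factors apart from other probes. Over all genes 207 were called, 437 with array weights and 61 to 402 with 1 array left out, the fewest without siSTAT3 replicate 3 (61) and the most without siCon replicate 3 (402). Each such fit has 1 sample fewer, and the causes of these moves were not otherwise tested.

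With the replicate number as a block 283 genes were called, and the block added NRP1 (-0.56, adjusted p = 0.0143) to THBS1 and FGF2, giving 3 called factors and 3 called probes. Each array's deviations correlated best with those of its own number in the other group, a hint from the data and not from the design. Signal over background limits what can be read for VEGFC, PDGFA, PDGFB, THBS2, PGF and the second NRP1 probe.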
